A study of Rattus norvegicus with 11 samples.

Results

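Cation-chloride cotransporters are membrane proteins of the SLC12 family, and their transcripts were examined here in dorsal root ganglia of the rat, the clusters beside the spinal cord where sensory neurons sit. The genes were chosen by symbol from a list of 8 members, of which 7 were among the 16811 rows of the deposited table. Slc12a9, the remaining member, was not analysed here. RNA came from 11 libraries of Sprague-Dawley rats in 3 groups: 4 had a sham operation (Sham), 4 had a spinal nerve tied off (SNL) and 3 received UNC0638 after the same ligation (SNL plus UNC0638). Ligation of a spinal nerve is a model of neuropathic pain, and UNC0638 blocks the enzymes G9a and GLP, which place a repressive methyl mark on histone H3. Sham ganglia were taken from the right side and ligated ganglia from the left, so that side and ligation cannot be told apart, and no group received UNC0638 without ligation. RNA was extracted with Trizol or RNeasy, and which library had which is not stated, nor are age, dose and time after surgery. The labels do not say whether replicates were separate animals, and p-values measure only the spread between these libraries.

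As background, these cotransporters carry chloride together with sodium or potassium across the membrane without using ATP directly. Slc12a2 encodes NKCC1, which brings sodium, potassium and chloride into the cell, and its high activity is why mature sensory neurons keep a high internal chloride and are depolarised by GABA. The potassium-chloride cotransporters KCC1 (Slc12a4), KCC2 (Slc12a5) and KCC4 (Slc12a7) carry chloride out. KCC2 is the extruder of central neurons and is known to be scarce in sensory neurons. NKCC2 (Slc12a1) and the thiazide-sensitive NCC (Slc12a3) are best known from the kidney tubule. WNK kinases and the kinases SPAK (Stk39) and OSR1 (Oxsr1) switch the sodium-coupled members on and the potassium-coupled members off by phosphorylation.

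Values are called scaled counts here, since the authors had divided the counts of each library by a factor. Sums were 9450045 to 11347920 per library. Median-of-ratios factors (the median over genes of a library's value relative to the gene's geometric mean) were 0.9965 to 1.0024. The values were thus already level by that measure. The reads behind a library were estimated at 6127881 to 24367805 from the step between its lowest values. A gene was tested where 3 or more libraries had a scaled count of 10 or more (12085 genes), with limma on log2(value + 1), and a gene passed at a Benjamini-Hochberg adjusted p under 0.05. In SNL plus UNC0638 replicate 1, the summed level of 8 skeletal muscle markers was 69429, against 134.6 to 492.6 in the other 10 libraries, and results are given without that replicate where it mattered. Sham replicate 3 and SNL replicate 3 deviated alike from their group means (r = 0.431 across genes, which do not count as replicates), as did SNL replicate 3 and SNL plus UNC0638 replicate 1 (r = 0.429). Markers of sensory neurons marked the tissue in every library: 10 of 10 were in the table, with summed levels of 355381 to 415511 in Sham, 176540 to 236837 in SNL and 144749 to 226618 in SNL plus UNC0638. In bulk tissue, fewer cells of a type and less RNA per cell cannot be told apart.

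Of the 7 members in the table, 6 passed the filter on low values. Slc12a8 reached 10 in 2 libraries and was not tested. Slc12a1 and Slc12a5 reached 10 in 6 libraries each. Slc12a1 passed the filter only through Sham, the group in which it was high. Outside Sham it reached 10 only in SNL replicate 2 and SNL plus UNC0638 replicate 1. Slc12a5 reached 10 in Sham replicate 3 and SNL replicates 2 and 3 as well as in the treated libraries. The values in every library are plotted by gene, and scaled counts are not corrected for transcript length, so that levels are compared between groups of one gene and not between genes.

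**Figure D1:**
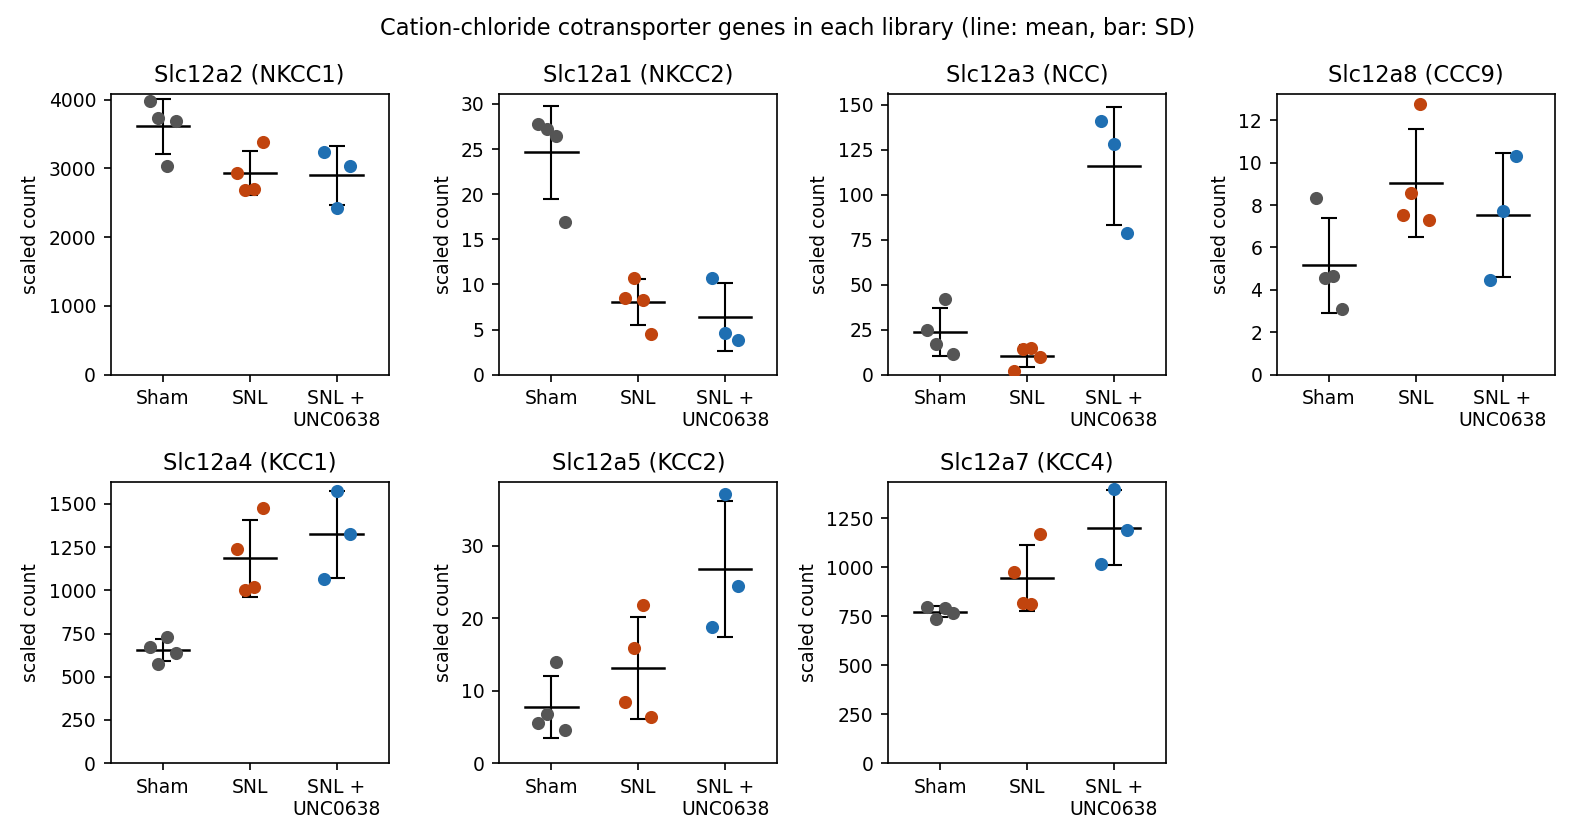
Scaled counts (vertical axis, from 0) of the 7 members in each of the 11 libraries, by group; each point is a library, lines are means and bars are SD. Slc12a3 lay at 78.7 to 140.8 in SNL plus UNC0638, above all 8 other libraries, while Slc12a4 was higher than in every Sham library in both ligated groups and Slc12a1 lower.

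After ligation, 1 member rose (Slc12a4), 1 fell (Slc12a1) and 4 of the 6 tested did not pass. The share called, 33.3%, stood beside 48.2% of all genes tested in SNL against Sham (24.8% higher and 23.4% lower), and the members' median log2 fold change was -0.01 beside 0.00 (-0.003) over all genes. With UNC0638 on top of ligation, 1 of 6 rose (Slc12a3) and none fell (16.7%, beside 27.8% of all genes in SNL plus UNC0638 against SNL, 13.5% higher and 14.3% lower), with a median of 0.26 beside 0.01. Against Sham, the ligated and treated ganglia had 4 members higher and 1 lower (83.3%, beside 51.5% of all genes in SNL plus UNC0638 against Sham, 25.5% higher and 26% lower), with a median of 0.81 beside -0.01. Without SNL plus UNC0638 replicate 1, 6 of 6 passed in that comparison, 4 higher and 2 lower. Groups did not overlap for 3 of the 6 tested members in SNL against Sham (beside 43.3% of all genes), 1 in SNL plus UNC0638 against SNL (beside 37.6%) and 5 in SNL plus UNC0638 against Sham (beside 48.4%). Each pair of comparisons shares a group of libraries. Slc12a1, counted as lower in both comparisons with Sham, was tested only through its Sham values.

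The sodium-coupled importers are taken first. Slc12a2, the NKCC1 gene, stood at 3977, 3726, 3040 and 3692 in Sham replicates 1 to 4, at 2936, 2693, 2706 and 3378 in SNL replicates 1 to 4, and at 3240, 2417 and 3033 in SNL plus UNC0638 replicates 1 to 3. Sham replicate 3 and SNL replicate 4 made the groups overlap, and the other Sham libraries were above all ligated ones. The means were 3609 ± 400.0, 2928 ± 320 and 2897 ± 429 (SD), resting on 1562 to 6281 estimated reads per library. The log2 fold change of SNL against Sham was -0.30 (SE 0.13, 95% interval -0.59 to -0.01), which did not pass after adjustment (limma adjusted p = 0.0778). Without Sham replicate 3 it was -0.38 and passed (adjusted p = 0.0256). Of 22 alternative settings of the fit, described below, 19 left it short of passing, and the limma adjusted p reached 0.199. Between SNL plus UNC0638 and SNL the difference was -0.02 (interval -0.33 to 0.29, limma adjusted p = 0.922). Against Sham, SNL plus UNC0638 stood at -0.32 (limma adjusted p = 0.0773), and at -0.41 without SNL plus UNC0638 replicate 1 (adjusted p = 0.0461) and -0.40 without Sham replicate 3 (adjusted p = 0.0252). Here too, 19 of 22 alternatives left it short of passing, with a limma adjusted p of up to 0.31.

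Slc12a1, the gene of the kidney cotransporter NKCC2, was scarce in all libraries and fell after ligation. Its scaled counts were 27.8, 27.3, 26.5 and 16.9 in Sham, 8.47, 10.7, 8.26 and 4.56 in SNL and 10.8, 4.64 and 3.87 in SNL plus UNC0638, in replicate order. All ligated libraries were below the lowest Sham library. The estimated reads were 17 to 24 per library in Sham, 5 to 25 in SNL and 3 to 12 in SNL plus UNC0638. The mean went from 24.6 ± 5.17 to 8.001 ± 2.55, 3.08-fold lower (log2 fold change -1.53, SE 0.36, limma adjusted p = 0.00479). SNL plus UNC0638 stood 3.83-fold below Sham (log2 fold change -1.88, SE 0.39, limma adjusted p = 0.00232). The treated and untreated ligated groups overlapped (log2 fold change -0.34, 95% interval -1.20 to 0.52). In the order of the chromosome in the RefSeq annotation, the neighbours of Slc12a1 that the table holds are Ctxn2, at a mean of 13.6 in Sham, 4.66 in SNL and 5.49 in SNL plus UNC0638, and Dut, at 341.5, 240.8 and 208.8. The fall of Slc12a1 lay beside that of 8 of 10 sensory neuron markers (1 was higher), where 23.4% of all genes were lower. The part of these markers was not tested.

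Slc12a3, which encodes the sodium-chloride cotransporter NCC, had the largest difference of any tested member. Its scaled counts were 25.04, 17.0, 42.1 and 11.5 in Sham, 1.88, 14.1, 15.02 and 10.03 in SNL, and 140.8, 128.4 and 78.7 in SNL plus UNC0638, in replicate order. The 3 treated libraries were above all others, and Sham and SNL overlapped. Behind these values lay 15 to 27 estimated reads in Sham, 2 to 33 in SNL and 61 to 157 in SNL plus UNC0638. The treated library with the fewest (61 reads) had an exact Poisson 95% interval of 46.7 to 78.4 reads. The SNL library with the most (33 reads) had one of 22.7 to 46.3, counting error only. These libraries held 7325787 and 24367805 estimated reads in all, so that the intervals are not on one scale. In scaled counts, the 61 reads stood at 78.7 and the 33 reads at 14.1. The means of 116 ± 32.9 with UNC0638 and 10.3 ± 6.0 with ligation alone differed 11.3-fold (log2 fold change 3.598, SE 0.58, 95% interval 2.32 to 4.87, limma adjusted p = 0.00189). The log2 fold change was 3.44 (adjusted p = 0.00858) when replicate 1 of SNL plus UNC0638 was left out. Against Sham the difference was 4.85-fold (log2 fold change 2.34, SE 0.58, limma adjusted p = 0.00617). SNL against Sham gave -1.26 (SE 0.54, interval -2.44 to -0.08), which did not pass (adjusted p = 0.073), and without SNL replicate 3 it was -1.52 and passed (adjusted p = 0.0447). The other 21 of 22 alternatives left SNL against Sham short of passing, with a limma adjusted p of up to 0.209.

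Other genes of the kidney tubule were looked at beside Slc12a3. Of 5 markers 4 were in the table, none of which passed the filter, and their summed level was 6.96 to 10.9 in Sham, 2.74 to 3.76 in SNL and 4.64 to 10.8 in SNL plus UNC0638. The defining tubule genes Umod (uromodulin), Aqp2 (a water channel of the collecting duct) and Slc34a1 (a phosphate transporter) lay between 0 and 2.82 in every library. Kcnj1, a potassium channel of the tubule, was at 5.56 to 10.9 in Sham, 0 to 0.857 in SNL and 3.87 to 7.18 in SNL plus UNC0638. The part of these markers in the Slc12a3 values was not tested beyond these levels. On the chromosome, Slc12a3 is flanked among the genes of the table by Herpud1, an endoplasmic reticulum stress gene, and Nup93, a nuclear pore gene. Herpud1 was at 499 to 718 in SNL and 588 to 697 in SNL plus UNC0638, and these ranges overlap. Nup93 was at 448 to 527 in SNL and 1051 to 1469 in SNL plus UNC0638, and these do not. Whether the counting let neighbouring genes share reads is not stated, and the part of Nup93 was not tested.

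The potassium-coupled extruders come next. Slc12a4, the gene of the widely expressed KCC1, rose after ligation. Its scaled counts were 672, 573, 729 and 640 in Sham, 1242, 1004, 1017 and 1474 in SNL, and 1068, 1575 and 1326 in SNL plus UNC0638, in replicate order. Each ligated library was above the highest Sham library, and the ligated groups overlapped. The mean rose from 653 ± 65.3 to 1184 ± 222, 1.81-fold (log2 fold change 0.84, SE 0.16, limma adjusted p = 0.00112), on 468 to 2341 estimated reads per library over both groups. SNL plus UNC0638 (1323 ± 253) was 2.02-fold above Sham (log2 fold change 1.00, SE 0.17, limma adjusted p = 0.000682). The treated and untreated ligated groups differed by 0.16 on the log2 scale (interval -0.21 to 0.53, adjusted p = 0.487). The Slc12a4 rise lay beside rises of all 6 fibroblast and 7 of 8 macrophage markers, where 24.8% of all genes were higher. The fibroblast sum was 24041 to 33735 in Sham, 85909 to 217026 in SNL and 38017 to 93261 in SNL plus UNC0638. The macrophage sum was 1121 to 2317, 3691 to 5432 and 3791 to 5996, in that order. Rises were also called for 3 of 4 tested endothelium markers and 3 of 4 of dividing cells. Of satellite glia markers 2 of 5 rose, and of myelinating Schwann cell markers 1 of 6. Their part in the Slc12a4 values was not tested.

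Slc12a7, which encodes KCC4, stood at 796, 736, 792 and 769 in Sham, at 977, 818, 811 and 1171 in SNL, and at 1016, 1402 and 1188 in SNL plus UNC0638, in replicate order. The lowest SNL library was above the highest Sham library by a small margin (811 against 796), and the ligated groups overlapped. The log2 fold change of SNL against Sham, 0.27 (SE 0.14, 95% interval -0.03 to 0.57), did not pass (limma adjusted p = 0.12), nor did that of SNL plus UNC0638 against SNL (0.35, SE 0.15, interval 0.03 to 0.68, adjusted p = 0.0942). The latter passed without SNL replicate 4 (0.46, adjusted p = 0.0392), while 20 of 22 alternatives left it short of passing. Its limma adjusted p reached 0.311 among them. SNL plus UNC0638 against Sham was 1.55-fold higher (1202 ± 193 against 773 ± 27.3, log2 fold change 0.62, SE 0.15, limma adjusted p = 0.00472).

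Slc12a5, the gene of the neuronal extruder KCC2, was near the lower limit of what these libraries could measure. It stood at 5.56, 6.82, 14.0 and 4.61 in Sham, at 8.47, 15.9, 21.8 and 6.38 in SNL, and at 18.8, 37.1 and 24.5 in SNL plus UNC0638, in replicate order. The estimated reads were 4 to 9 in Sham, 7 to 37 in SNL and 19 to 24 in SNL plus UNC0638, and 4 reads have an exact Poisson 95% interval of 1.09 to 10.2. Every treated library was above every Sham library, and SNL overlapped with both groups. The mean of 26.8 ± 9.37 with UNC0638 was 3.46-fold above the Sham mean of 7.75 ± 4.28 (log2 fold change 1.73, SE 0.47, 95% interval 0.70 to 2.75, limma adjusted p = 0.00945). That call was lost without SNL plus UNC0638 replicate 2 (log2 fold change 1.47, adjusted p = 0.0517). SNL against Sham was 0.66 (SE 0.43, interval -0.29 to 1.60, limma adjusted p = 0.229). SNL plus UNC0638 against SNL was 1.07 (SE 0.47, interval 0.04 to 2.09, limma adjusted p = 0.105), and 1.34 without SNL replicate 3 (adjusted p = 0.0459). In that comparison 19 of 22 alternatives stayed short of passing, with a limma adjusted p of up to 0.304. Markers of spinal cord neurons, the cells in which KCC2 is abundant, and of spinal cord glia were summed together. All 9 of 9 were in the table. Their summed level was 82.2 to 168 in Sham, 88.5 to 152 in SNL and 60.3 to 130.0 in SNL plus UNC0638. The inhibitory neuron genes Slc32a1, Gad2 and Slc6a5 lay at 0 to 2.58, 0 to 4.48 and 3.12 to 20.3. Gad1, another, was at 24.6 to 62.3 in Sham, 31.0 to 59.3 in SNL and 0 to 29.6 in SNL plus UNC0638. None of the 5 tested markers passed in any of the 3 comparisons, and the part of the markers in the Slc12a5 values was not tested. Mmp9, the gene next to Slc12a5 in the RefSeq order and a matrix protease of immune cells, stood at 1.54 to 12.5 in Sham, 17.3 to 65.8 in SNL and 24.2 to 92.8 in SNL plus UNC0638, and its part in the Slc12a5 values was not tested.

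Slc12a8, a distant member of the family named Ccc9 in the RefSeq synonyms, was below the filter. It lay at 3.07 to 8.35 in Sham, 7.30 to 12.8 in SNL and 4.48 to 10.3 in SNL plus UNC0638, on 3 to 20 estimated reads per library. The groups overlapped, and it was not tested.

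**Figure D2:**
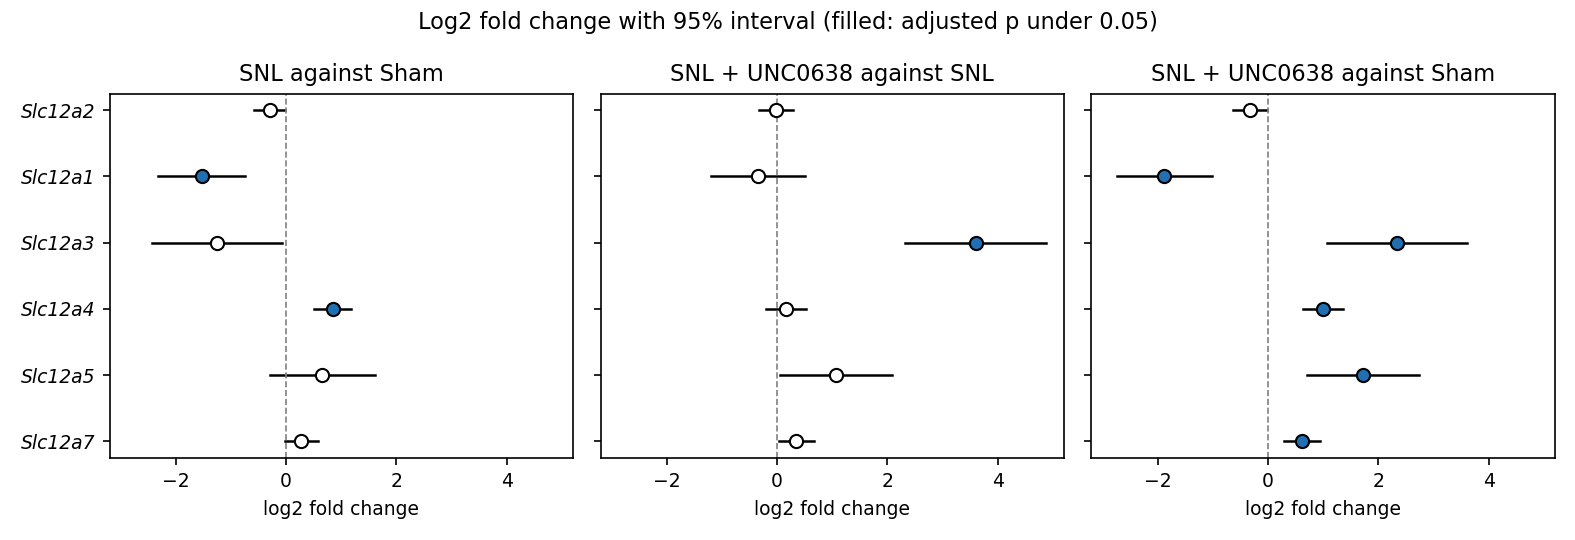
Log2 fold changes (horizontal axis, on the log2(value + 1) scale) of the 6 tested members in the 3 comparisons; points are estimates, lines 95% intervals and filled points those with a limma adjusted p under 0.05. Slc12a3 in SNL plus UNC0638 against SNL stood farthest from 0, at 3.598, and Slc12a2 passed in none of the 3 comparisons.

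Promoter sequences are shown for the member that differed most with UNC0638 (Slc12a3), the extruder gene that rose with ligation (Slc12a4) and the KCC2 gene (Slc12a5), since the enzymes that UNC0638 inhibits act on chromatin. They are the 250 bases before the annotated start of transcription in RefSeq, build GRCr8, which is a later build than that of the data (rn4), written 5′ to 3′ along the gene. All 7 measured members matched RefSeq by symbol. Capitals mark the TATA box motif TATAAA and the GC box motif GGGCGG, and each motif was searched on both strands, so that CCGCCC in capitals is GGGCGG on the other strand.
Slc12a3, chr19:10675051-10675300, minus strand: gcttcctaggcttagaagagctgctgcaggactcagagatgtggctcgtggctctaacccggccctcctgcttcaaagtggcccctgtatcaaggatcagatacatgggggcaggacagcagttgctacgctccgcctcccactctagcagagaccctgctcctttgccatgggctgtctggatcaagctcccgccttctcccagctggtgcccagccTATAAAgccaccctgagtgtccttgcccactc
Slc12a4, chr19:50770123-50770372, minus strand: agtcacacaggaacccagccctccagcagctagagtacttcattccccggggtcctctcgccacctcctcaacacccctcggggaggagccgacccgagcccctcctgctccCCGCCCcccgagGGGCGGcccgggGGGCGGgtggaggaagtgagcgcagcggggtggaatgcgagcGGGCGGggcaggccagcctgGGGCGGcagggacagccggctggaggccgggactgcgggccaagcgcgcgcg
Slc12a5, chr3:174115583-174115832, plus strand: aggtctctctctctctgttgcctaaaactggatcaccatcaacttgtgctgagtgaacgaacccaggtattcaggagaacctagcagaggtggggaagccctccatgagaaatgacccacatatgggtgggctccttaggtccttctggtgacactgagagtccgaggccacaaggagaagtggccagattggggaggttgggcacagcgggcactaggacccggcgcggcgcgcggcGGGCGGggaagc

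The window of Slc12a3 held 1 TATAAA, whose first base lies 32 bases before the start, no GGGCGG and 5 CpG dinucleotides. TATAAA was present in 12.9% of the 33469 RefSeq promoter windows of equal length. The window of Slc12a4 held 5 GGGCGG motifs and 23 CpG, and that of Slc12a5 held 1 GGGCGG and 11 CpG. GGGCGG was present in 30.5% of all windows, and the median window held 5 CpG (quartiles 2 and 15). The window of Slc12a7, not printed, held 9 GGGCGG and 23 CpG. The E-box CACGTG was found in the Slc12a7 window once and in none of the 3 printed, against 5.59% of all windows. These matches describe the letters of the windows alone.

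Ratios within a library do not depend on how the libraries were scaled. The scaled count of Slc12a4 was 16.9%, 15.4%, 24.0% and 17.3% of that of Slc12a2 in Sham, 42.3%, 37.3%, 37.6% and 43.6% in SNL, and 33.0%, 65.2% and 43.7% in SNL plus UNC0638, in replicate order. Each ligated library was above the highest Sham library, and the untreated and treated ligated groups overlapped. Slc12a2 was 715, 547, 217 and 801 times Slc12a5 in Sham, 347, 170, 124 and 529 times in SNL, and 172, 65.1 and 124 times in SNL plus UNC0638. The treated libraries were all below the lowest Sham library, at 217, while SNL spanned from 124 to 529. Within Sham and within SNL, replicate 3 had the lowest ratio of its group. As transcript lengths were not used, these ratios compare libraries and do not give the relative number of transcripts. Of the summed scaled counts of the 7 members, Slc12a2 made up 65.4% to 73.2% in Sham, 55.8% to 59.0% in SNL and 43.4% to 58.9% in SNL plus UNC0638, while the sum itself was 4648 to 5512, 4563 to 6051 and 5500 to 5664.

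**Figure D3:**
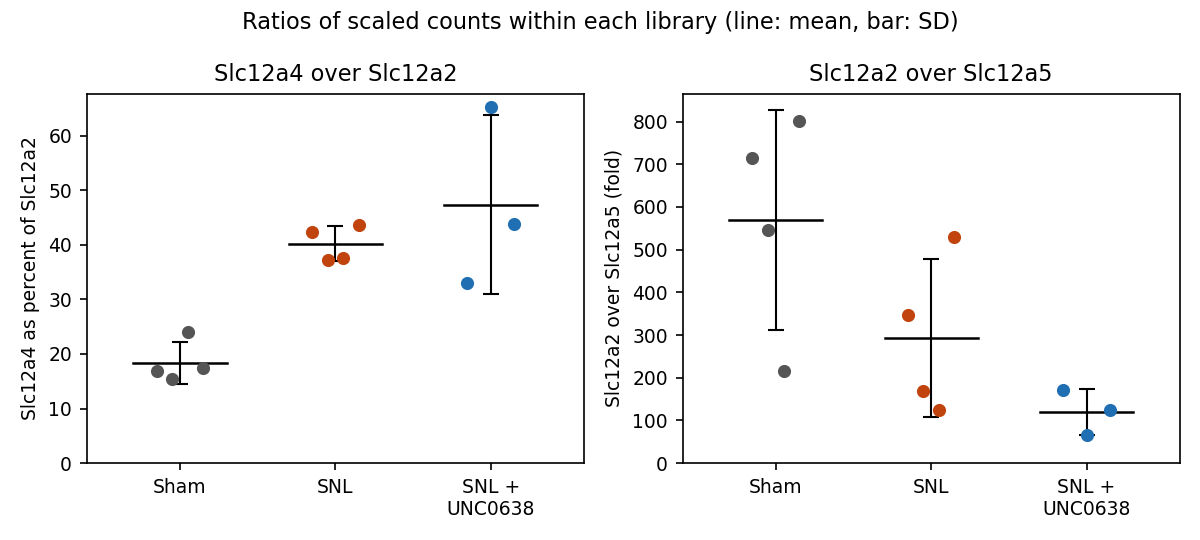
Ratios of scaled counts within each library, by group, with Slc12a4 as a percent of Slc12a2 on the left and Slc12a2 over Slc12a5 (fold) on the right; points are libraries, lines means and bars SD, with both axes from 0. The percent lay at 15.4 to 24.0 in Sham and 37.3 to 43.6 in SNL without overlap, and the fold at 65.1 to 172 in SNL plus UNC0638, below all Sham libraries.

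The genes whose pattern over the 11 libraries was most like that of a member were found by Pearson correlation of log2(value + 1) among all tested genes; the libraries form groups, so that the values describe shared differences between groups. For Slc12a2 these were Slc35a3 (r = 0.967; means 322.5 in Sham, 239 in SNL and 242 with UNC0638), Cwf19l2 (r = 0.957) and Osgepl1 (r = 0.950). For Slc12a5 they were Dusp18 (r = 0.972; 77.5, 98.4 and 129), Arhgap39 (r = 0.969) and Agap1 (r = 0.968). For Slc12a1, the tested member with the largest change in SNL against Sham, they were Tomm34 (r = 0.970; 1500.0, 822 and 821), Tubgcp2 (r = 0.970) and Prkacb (r = 0.969). Among the members themselves, the highest value over the 11 libraries was between Slc12a4 and Slc12a7 (r = 0.899) and the lowest between Slc12a1 and Slc12a4 (r = -0.942).

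Among the kinases and regulators of the cotransporters, 3 passed after ligation and 6 with UNC0638. Of 13 measured genes of 15 listed, 1 was higher and 2 were lower in SNL against Sham (23.1%, beside 48.2% of all genes), with a median log2 fold change of 0.04. Wnk3, one of the WNK kinases, rose from 61.2 ± 2.44 to 109 ± 17.5 (log2 fold change 0.81, SE 0.21, limma adjusted p = 0.00924). The ubiquitin ligase gene Nedd4l fell from 2411 ± 216 to 1179 ± 354 (log2 fold change -1.08). Cab39, whose product MO25 activates SPAK and OSR1, fell from 5276 ± 518 to 3750.05 ± 208 (log2 fold change -0.49). In SNL plus UNC0638 against SNL, 1 was higher and 5 were lower (46.2%, beside 27.8%), with a median of -0.33. Stk39, the SPAK gene, was at 2276 ± 226 against 3664 ± 460.5 (log2 fold change -0.68, SE 0.14, limma adjusted p = 0.00461). Its 4 Sham libraries lay at 3298 to 4208, above the treated ones (2045 to 2498). Ppp1ca, a catalytic subunit of protein phosphatase type 1, an enzyme that takes phosphate groups off proteins, was at 1855 ± 86.2 against 2849 ± 366 (log2 fold change -0.61). Oxsr1, the OSR1 gene, and Cab39 were lower too (log2 fold changes -0.37 and -0.44), as was Cab39l (-0.52), and Nedd4l was higher (0.78). Of the WNK kinase genes, Wnk1 (0.43), Wnk2 (1.62) and Wnk4 (0.80) lay above 0 and Wnk3 (-0.35) below, and none passed. Without SNL plus UNC0638 replicate 1 the count went from 6 to 3, none higher and 3 lower, and it became 9, 4 higher and 5 lower, without both Sham replicate 3 and SNL replicate 3. The ligation count of 3 became 7, 3 higher and 4 lower, when those 2 libraries were left out, and 5, 3 higher and 2 lower, with upper-quartile scaling. Against Sham, 2 were higher and 5 lower (53.8%, beside 51.5%), with Cab39 (log2 fold change -0.93) and Stk39 (-0.65) having the smallest p. The 2 higher were Wnk1 (0.74, limma adjusted p = 0.0178) and Wnk4 (1.17, limma adjusted p = 0.0103).

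Genes tied to KCC2 went both ways. Of 14 listed, 12 were tested, and 2 were higher and 4 lower in SNL against Sham (50.0%, beside 48.2% of all genes), with a median of 0.03. Rest, whose product silences neuronal genes, rose from 198 ± 36.7 to 473 ± 29.1 (log2 fold change 1.27, SE 0.18, limma adjusted p = 0.00025). Grik2, a kainate receptor subunit that binds KCC2, rose from 336 ± 10.4 to 635 ± 72.4, and Neto2, an auxiliary protein of both, fell from 206 ± 39.8 to 98.1 ± 14.3 (log2 fold changes 0.91 and -1.05). With UNC0638, 2 were higher and 2 lower than in SNL (33.3%, beside 27.8%), with a median of 0.14: Grik2 stood at 1033 ± 238 (log2 fold change 0.68) and the protease gene Capn2 at 4918 ± 123 against 6474 ± 330.0 (log2 fold change -0.40). Rest stood at 483 ± 143 with UNC0638, and its difference from SNL did not pass (log2 fold change -0.01, interval -0.44 to 0.41). Against Sham, 3 were higher and 3 lower (50.0%, beside 51.5%), among them Grik2 (log2 fold change 1.59) and the creatine kinase gene Ckb (-1.07; 4034 ± 425 against 8473 ± 865). Pacsin1, whose product binds KCC2, was named after its values were seen and had the largest change of the list. It stood at 749 ± 369 in Sham, 175 ± 164 in SNL and 555 ± 226 in SNL plus UNC0638 (log2 fold change -2.42 with ligation, limma adjusted p = 0.00367, and 2.01 with UNC0638 against SNL, adjusted p = 0.0265), and the treated and untreated ligated groups overlapped. When Sham replicate 3 and SNL replicate 3 were left out, 4 genes of the list were higher and 3 lower with UNC0638 than with ligation alone. Bdnf, the growth factor known to lower KCC2 in the spinal cord, was listed at 0 in every library. It was among 1970 rows at 0 throughout. Whether reads were absent or were not assigned to such genes cannot be told, so that its expression is not known from these values.

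Most tested genes of the sodium pump, which maintains the sodium and potassium gradients that drive these cotransporters, fell with ligation. Of 6 tested subunit genes of 7 listed, none rose and 4 fell (66.7%, beside 48.2% of all genes, 24.8% higher and 23.4% lower), with a median log2 fold change of -0.85. The modulator Fxyd2 fell from 929.7 ± 152 to 284 ± 55.6 (log2 fold change -1.71, SE 0.22, limma adjusted p = 0.000171). Fxyd7, a modulator found in neurons, fell from 2089 ± 277 to 609 ± 239 (-1.85), and the beta subunit gene Atp1b3 from 9462 ± 1582 to 4399 ± 298.5 (-1.09). With UNC0638, 1 was higher and 1 lower than in SNL (33.3%, beside 27.8%), with a median of 0.70. Fxyd2 was higher at 558 ± 232 (log2 fold change 0.92, limma adjusted p = 0.0163). Atp1b1, the most common beta subunit, was lower (5706 ± 1422 against 9063 ± 1853, -0.67, limma adjusted p = 0.0257), a call that was lost when SNL replicate 1 (adjusted p = 0.0647) or 2 (adjusted p = 0.0698) or treated replicate 2 (adjusted p = 0.109) or 3 (adjusted p = 0.0756) was left out. The count was 4 higher and 1 lower when Sham replicate 3 and SNL replicate 3 were left out. Against Sham, 1 was higher and 4 were lower (83.3%, beside 51.5%), with Atp1b1 (-1.27) and Atp1b3 (-0.86) having the smallest p. The part of the falling sensory neuron markers in these values was not tested.

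Other chloride and bicarbonate transport genes gave 5 higher and 4 lower of 22 tested in SNL against Sham (40.9%, beside 48.2% of all genes; 27 were listed), with a median of -0.19. Clcn4, an endosomal chloride-proton exchanger, fell from 2515 ± 320 to 1088 ± 114 (log2 fold change -1.20, limma adjusted p = 0.000173). The sodium bicarbonate cotransporter Slc4a7 rose from 133 ± 12.7 to 296 ± 34.2 (1.15) and the sulfate transporter Slc26a2 from 139 ± 38.1 to 288 ± 57.0 (1.06). With UNC0638, 5 were higher than in SNL and none lower (22.7%, beside 27.8% of all genes, 13.5% higher and 14.3% lower), with a median of 0.40 beside 0.01. The chloride-bicarbonate exchanger Slc4a3 was at 798 ± 157 against 284 ± 65.0 (log2 fold change 1.498, SE 0.21, limma adjusted p = 0.000982) and the anion exchanger Slc26a6 at 192 ± 33.9 against 92.0 ± 13.7 (1.05, limma adjusted p = 0.00192). Slc26a2 was among the other 3. The count became 10 higher and none lower when Sham replicate 3 and SNL replicate 3 were left out. Against Sham, 8 were higher and 2 lower (45.5%, beside 51.5%), with Slc4a7 (1.52) and Slc26a2 (1.81) having the smallest p. Each list is described by its counts and median alone.

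**Figure D4:**
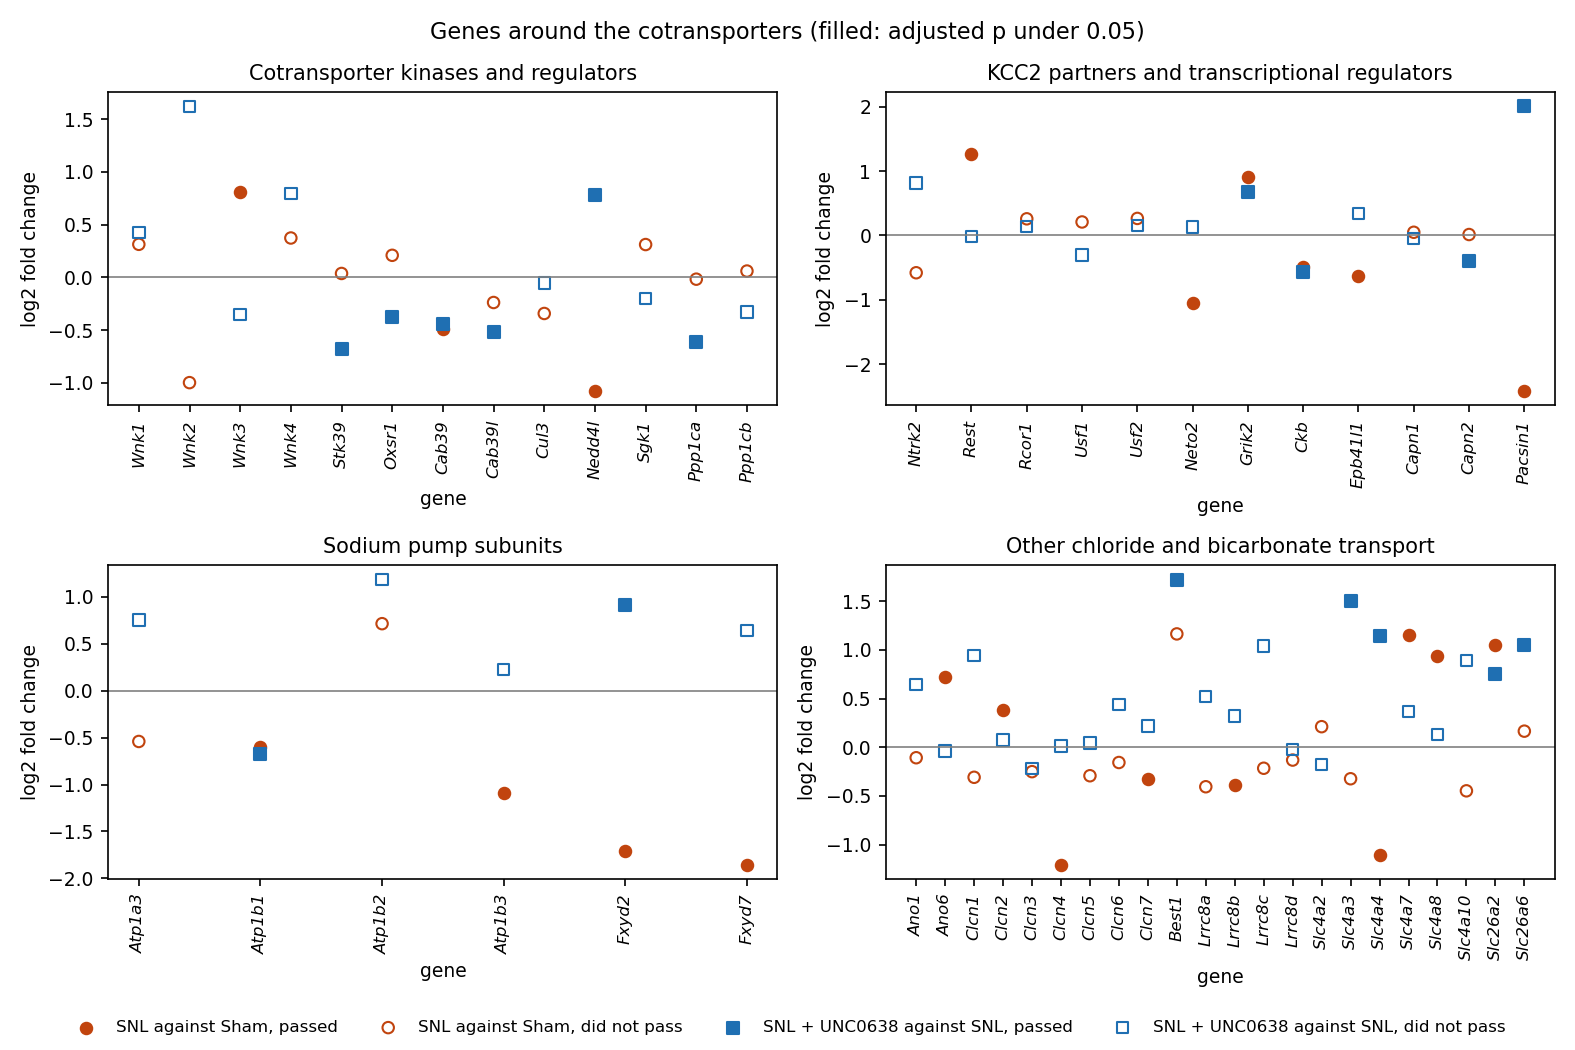
Log2 fold changes (vertical axis) of the tested genes of the 4 lists around the cotransporters in SNL against Sham (circles) and SNL plus UNC0638 against SNL (squares); filled symbols have a limma adjusted p under 0.05. Fxyd2 lay at -1.71 with ligation and 0.92 with UNC0638. Stk39, Oxsr1, Cab39, Cab39l and Ppp1ca were all below 0 with UNC0638, while Wnk1, Wnk2 and Wnk4 were above 0 and did not pass.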

How the data were processed

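Stranded total RNA libraries, depleted of ribosomal RNA, were read as single ends, per the labels. Reads were aligned to rat build rn4 with TopHat2 2.0.9 and Cuffdiff 2.1.1 was named, per the submitters' processing notes. The annotation and strand setting are not stated. The authors deposited a signal per gene, counts divided by 1 factor per library: 98.7% to 99.4% of low values (up to 20 steps) were multiples of a step (0.429 to 1.56) within 0.01 steps. The step gave the estimated reads, which cover counting error only. Between replicates of a group, chi-square per gene over that error was 5.73 to 75.4, and each was kept as a library of its own.

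The members and lists were chosen with earlier results of these data known. The genes Sdc2 and Pcdhgc5, each listed at 0 in all libraries of 1 group and above 0 elsewhere, were dropped for that pattern. limma 3.58.1 (R 4.3.3, statmod 1.5.0; trend and robust) was fitted to log2(value + 1) over 11 libraries with a mean per group, two-sided, and checked on simulated data. The fold changes understate low genes. Count models that need raw counts were not run, since the values are scaled, and voom on rounded estimated reads was run as an alternative. Pathway genes were named by smallest p: 3 called per list for SNL against Sham and 2 for the other comparisons. Oxsr1, Cab39l, Wnk1, Wnk2, Wnk4, Pacsin1, Nup93, Herpud1, Mmp9 and other neighbours or markers were named after their values were seen. Alternatives were other scalings, pseudocounts, filters and fits, a replicate block and the removal of libraries. Of the scalings, median-of-ratios nearly repeated the main fit, as its factors were 0.9965 to 1.0024. Upper-quartile scaling gave 3360 genes higher and 2320 lower in SNL against Sham (2995 and 2828 before). The median log2 fold change of all genes was then 0.074 (-0.003 before). The shares of all genes higher and lower thus depend on the scaling. Some genes of the lists are not reported here and were taken out of the list counts.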

Additional observations from a re-analysis of the deposited data

Results flagged for a closer look

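Of 52 groups of 4 libraries examined, 8 held a library whose gap to its nearest neighbour exceeded the 95% critical value of Dixon's test, where chance flags about 1 in 20 groups. Among the members this was Slc12a1, whose Sham replicate 4 stood at 16.91 against 26.49 to 27.82 in the other Sham libraries. Sham replicate 3 stood apart for 4 of the pathway genes: Ppp1ca at 2241 (others 3072 to 3153), Rest at 252.4 (others 175.3 to 182.9), Neto2 at 146.5 (others 222.7 to 230.9) and Atp1b3 at 7115. The other 3 were Rest in SNL replicate 4 at 516.2 (others 454.3 to 463), Stk39 in SNL replicate 2 at 4348 (others 3357 to 3515) and Slc26a6 in Sham replicate 1 at 90.43 (others 77.25 to 79.47).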

How the results depend on the processing

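Under the alternatives run, 377 of 396 values of the 6 tested members kept their direction and side of the threshold, 14 came to pass, 1 no longer passed and 4 changed sign. The calls that moved when a library was left out stand beside their genes in the report. The sign changes were all of Slc12a2 in SNL plus UNC0638 against SNL, which did not pass: 0.064 with voom on estimated reads, 0.022 with a replicate block, and from -0.107 to 0.105 when 1 library was left out, with positive values without SNL replicate 4 (0.05) and SNL plus UNC0638 replicate 2 (0.105). With voom, 5 members passed in SNL against Sham (2 before) and 3 in SNL plus UNC0638 against SNL (1 before), the additions being Slc12a2 (-0.31), Slc12a5 (1.202 and 1.18) and Slc12a7 (0.33 and 0.55). That fit scaled each library by its total of estimated reads and not by the factor of the authors. With voom the median log2 fold change of all genes was 0.073 in SNL against Sham (-0.003 before), 0.126 in SNL plus UNC0638 against SNL (0.007 before) and 0.194 in SNL plus UNC0638 against Sham (-0.011 before), and the share of calls that were higher was 68.3% in SNL plus UNC0638 against SNL (48.6% before) and 62.7% in SNL plus UNC0638 against Sham (49.6% before). Leaving out 1 library gave 1 to 2 members in SNL plus UNC0638 against SNL, and 2032 to 4468 of all genes (3356 before), the lowest without SNL plus UNC0638 replicate 2. Without Sham replicate 3 and SNL replicate 3 together, that comparison gave 2 members and 5341 genes. Fitting only the 2 groups compared, Atp1b1 in SNL plus UNC0638 against SNL no longer passed (-0.67, limma adjusted p = 0.0523). With no filter, Slc12a8 gave 0.74, -0.27 and 0.47 in the 3 comparisons, and none passed. The labels do not state whether replicate numbers pair the libraries. Same-numbered deviations correlated at 0.187, 0.005, 0.431 and 0.096 between SNL and Sham, and differently numbered ones at -0.354 to 0.273. Between SNL plus UNC0638 and SNL, same-numbered ones correlated at -0.319, -0.085 and -0.446, and differently numbered ones at -0.301 to 0.429. These values do not settle whether the libraries were paired. With a replicate block the calls were 5342, 2126 and 5437 of all genes and 2, 1 and 5 of the members. In SNL plus UNC0638 against SNL it left 2 of the kinases and regulators (6 before) and 2 of the KCC2 list (4 before), and Capn2 no longer passed (-0.39, limma adjusted p = 0.054). The planned count models that need raw counts were not run because the values are scaled, while voom was fitted to rounded estimated reads. Depth limits Slc12a1, Slc12a3, Slc12a5 and Slc12a8, where a library held as few as 3, 2, 4 and 3 estimated reads, in that order. The cause of these shifts was not tested.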
